A study of Mus musculus with 11 samples.

Results

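A set of 10 genes of eicosanoid and platelet-activating factor (PAF) metabolism was followed in mouse bone marrow that carried mutant CSF3R with or without mutant CEBPA, acquired in either order. The 10 genes, Pla2g7, Alox5, Alox5ap, Lta4h, Ltc4s, Alox15, Ptgs1, Ptgs2, Hpgds and Tbxas1, were taken by name for the enzyme or enzyme partner that each encodes. The choice was made with earlier results of these data known, and the study had already reported Pla2g7 in these groups. All 10 were among the 51912 genes of the count table, and all 10 were among the 15703 genes that passed the filter on low counts. The data are whole-number read counts per gene from RNA sequencing of 11 samples of C57BL/6 marrow from donors aged 6 to 12 weeks. In the 4 CSF3R-only samples, marrow cells received a retrovirus with an activating CSF3R mutation and an empty inducible vector. In the 3 CSF3R-first samples the same CSF3R virus was joined by an inducible C-terminal CEBPA mutant, and in the 4 CEBPA-first samples the CEBPA mutant was constitutive and mutant CSF3R was inducible. After transduction, cells of every group were sorted as lineage-negative and positive for both vector reporters, then grown without cytokines for 48 h with 500 nM 4-hydroxytamoxifen. The study pairs the inducible vector with marrow that expresses a tamoxifen-activated Cre, while the labels give the strain alone. The transgenes were human sequences driven from retroviral vectors, so their levels are not those of the native genes, and the empty-vector controls also received the drug. The control group carried mutant CSF3R, so no group was free of an oncogene, and CEBPA mutant without CSF3R was not analysed here. The question each comparison addressed is how the second mutation, and the order in which the 2 arrived, went with the level of these transcripts. Order goes together with the vector of each mutant, constitutive or inducible, and with how long each mutant was expressed. These cannot be told apart in this design, although the study reports equivalent CEBPA expression from both vectors.

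Eicosanoids are signalling lipids made from arachidonic acid, a fatty acid that phospholipases cut from membranes. The 5-lipoxygenase branch makes leukotrienes, the cyclooxygenase branch makes prostaglandins and thromboxane, and 12/15-lipoxygenases make hydroxylated fatty acids and lipid mediators of resolution. PAF is an ether phospholipid made by activated myeloid cells and inactivated by acetylhydrolases such as the one Pla2g7 encodes. Neutrophils, monocytes, eosinophils, mast cells and platelets are the main blood-cell sources of these lipids, and they use different branches.

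Upstream sequence is shown for a member that rose with mutant CEBPA (Lta4h) and for the leading enzyme of each branch that fell (Alox5 and Ptgs1). Each is the 250 bases before the RefSeq start site, and none of these bases lies in an annotated exon. Capitals mark matches, on either strand, to GAGGAA, a core bound by the myeloid factor PU.1, and to GGGCGG, a GC box.
Alox5, GRCm38.p6 chr6:116461179-116461428, minus strand: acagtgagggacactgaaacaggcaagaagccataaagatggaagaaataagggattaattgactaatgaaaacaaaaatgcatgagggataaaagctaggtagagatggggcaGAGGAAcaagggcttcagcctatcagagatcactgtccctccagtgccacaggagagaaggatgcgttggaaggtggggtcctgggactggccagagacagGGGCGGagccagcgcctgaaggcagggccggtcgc
Ptgs1, GRCm38.p6 chr2:36230176-36230425, plus strand: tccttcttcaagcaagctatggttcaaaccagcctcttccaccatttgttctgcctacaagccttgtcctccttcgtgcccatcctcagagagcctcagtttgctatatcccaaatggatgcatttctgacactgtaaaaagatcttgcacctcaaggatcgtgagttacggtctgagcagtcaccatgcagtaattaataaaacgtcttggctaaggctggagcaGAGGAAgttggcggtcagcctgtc
Lta4h, GRCm38.p6 chr10:93453146-93453395, plus strand: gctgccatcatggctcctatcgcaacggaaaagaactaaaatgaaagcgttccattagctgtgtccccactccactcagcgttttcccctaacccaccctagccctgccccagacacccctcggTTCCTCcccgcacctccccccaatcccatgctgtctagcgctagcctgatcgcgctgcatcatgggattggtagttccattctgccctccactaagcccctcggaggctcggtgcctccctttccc

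All 3 windows held GAGGAA letters once, with the match starting at position -136 of Alox5, -24 of Ptgs1 and -126 of Lta4h, counted so that -1 is the base before the start site. The same letters were in 6 of the 8 member windows at hand, with Ptgs2 at -247, Hpgds at -49 and Tbxas1 at -19, and GGGCGG was in 3, Alox5, Pla2g7 and Ptgs2. GAGGAA stood upstream of the member that rose as well as of members that fell. RefSeq upstream windows were at hand for 8 of the 10 members, all but Alox5ap and Alox15, and the 5 windows not printed overlap annotated exons. The CCAAT/enhancer-binding letters TTGCNNAA, searched on both strands, occurred in 2 of them, Ptgs2 at -69 and Hpgds at -176. The STAT letters TTCNNNGAA occurred in 1, Pla2g7 at -145. Among 32851 windows of the same length, 9.56% held TTGCNNAA, 7.02% TTCNNNGAA, 23.3% GAGGAA and 32.7% GGGCGG. The motifs did not overlap one another in these windows, and a match describes letters only.

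The libraries held 47905747 to 72268346 counts, and levels are given as CPM, the counts of a gene scaled to a fixed total per library, with the trimmed mean of M values (TMM) as library scaling. Differences were tested with edgeR's quasi-likelihood test, with p adjusted over all genes tested. A gene is said to have risen or fallen where its adjusted p was under 0.05, and the stricter threshold also asked for a 2-fold difference. The labels do not say whether replicates came from separate animals, so p-values measure only the spread between these samples. Markers of cell types were read in the same libraries, as sums over fixed lists. The 14 neutrophil maturation genes had a summed level of 6789 to 9099 CPM in the CEBPA-first libraries, 15467 to 26977 CPM with CSF3R first and 28254 to 34698 CPM in the CSF3R-only controls. The 5 primary granule genes went the other way, at 6300 to 6757, 4777 to 5556 and 2860 to 3499 CPM in the same order. All 9 lymphoid markers averaged under 1 CPM in every group. Neutrophil maturation, megakaryocyte and erythroid markers were counted in every group. The sort for lineage-negative cells preceded the 48 h of culture, and the antigens of its lineage cocktail are not listed in the sources used here. Fewer cells of a type and less RNA per cell cannot be told apart in such samples.

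**Figure D1:**
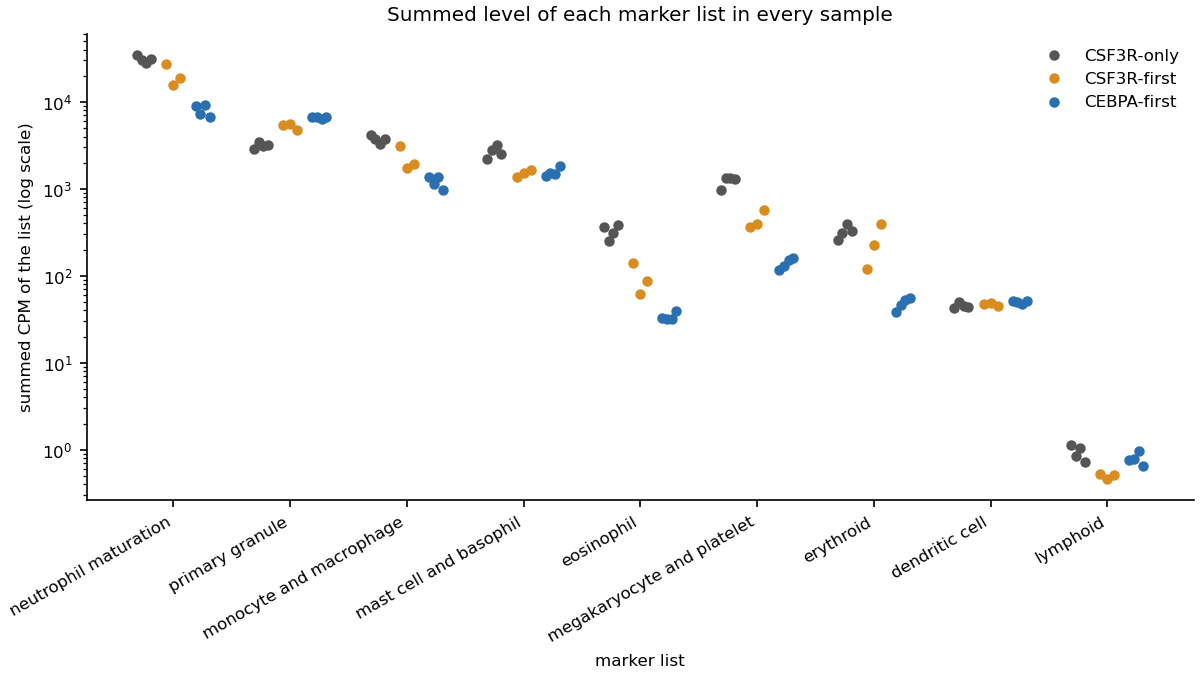
Summed CPM of each marker list (log axis) in every sample, coloured by group, with 1 point per sample. Neutrophil maturation, monocyte, eosinophil and megakaryocyte sums were lowest in the CEBPA-first samples, and primary granule sums were highest there.

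Between CEBPA-first and CSF3R-only, 9 of the 10 members fell and 1, Lta4h, rose. Over all genes tested, 36.6% fell and 35.4% rose. Of the members, 7 were at least 2-fold lower, against 19.0% of all genes, and the members' median log2 fold change was -1.71, beside -0.00 for all genes. The samples of the groups did not overlap for 9 of the 10, with Alox15 the exception, and that was so for 68.7% of all genes. Between CEBPA-first and CSF3R-first, the same counts of 9 lower and 1 higher were found, against 24.3% and 24.0% of all genes. Again 7 members were at least 2-fold lower, against 10.3% of all genes. A test against a 2-fold change (edgeR's glmTreat) left 2 members here and 6 in the first comparison, all lower, where it left 4.13% and 12.2% of all genes as lower. None of the 10 overlapped between these groups, against 52.2% of all genes not overlapping. Between CSF3R-first and CSF3R-only, 6 members fell and 1 rose, against 21.1% and 21.6% of all genes. Pla2g7 alone was past 2-fold, against 4.53% of all genes, and glmTreat left no member, where 7 had passed on adjusted p alone, and 0.516% of all genes as lower. In this comparison 7 of 10 members did not overlap, against 42.1% of all genes. The median log2 fold change of the members was -1.13 in the second comparison and -0.58 in the third. No member was past 2-fold higher in any comparison, against 8.07%, 2.57% and 2.13% of all genes in the same order. The comparisons share their groups, so they are not independent of one another. As the members were chosen with earlier results known, their counts and medians beside those of all genes describe this set only.

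**Figure D2:**
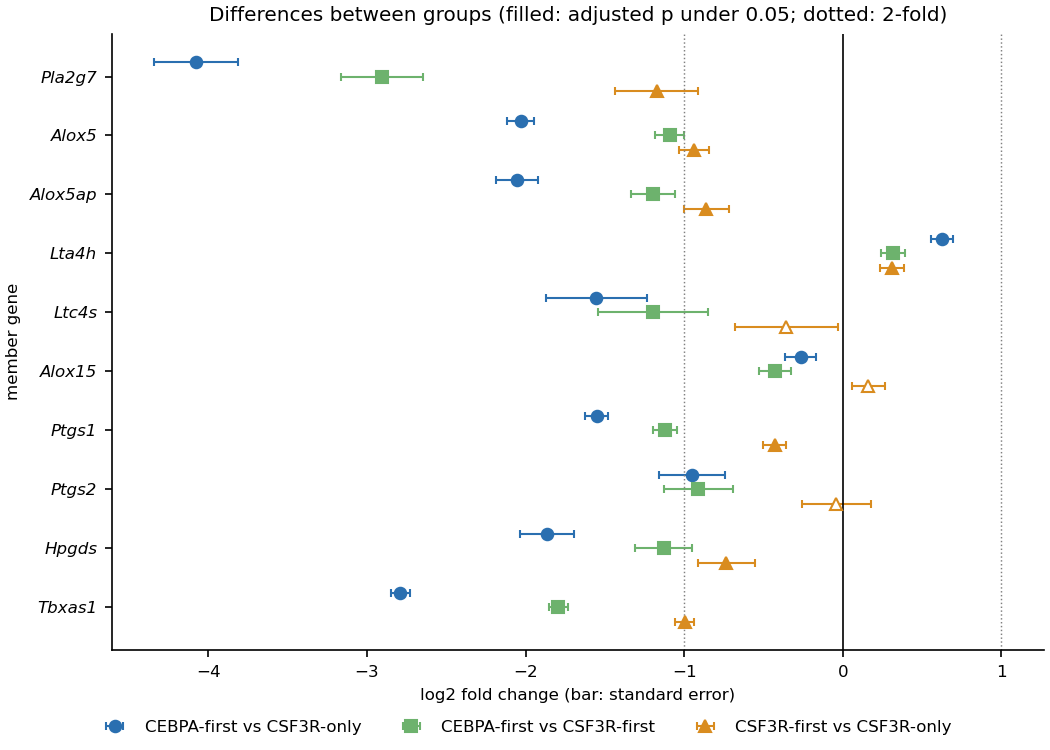
Log2 fold change of each member (horizontal axis) in the 3 comparisons, with the standard error as the bar; filled symbols have an adjusted p under 0.05 and dotted lines mark 2-fold. Lta4h is the member to the right of 0 in every comparison, and Pla2g7 reached -4.08 between CEBPA-first and CSF3R-only.

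The count of members past 2-fold between CSF3R-first and CSF3R-only turned on single libraries. Over all genes, the share past 2-fold lower moved too, from 4.53% with all samples to 3.09% without CSF3R-first replicate B and 6.41% without its replicate A. Without CSF3R-first replicate B no member passed, and Pla2g7 stood at a log2 fold change of -0.97 with an edgeR adjusted p of 0.019. Without CSF3R-first replicate A the count was 4, with Alox5, Alox5ap and Tbxas1 added. Leaving out CSF3R-first replicate C or CSF3R-only replicate A added Tbxas1 and gave 2, against 3.94% and 4.08% of all genes. Replicate A stood apart in several marker sums. Its neutrophil maturation sum was 26977 CPM, against 15467 in B and 18701 in C, and its monocyte and macrophage sum was 3140 CPM, against 1760.1 and 1915. Its eosinophil sum was the highest of the group (142 CPM, against 62.0 and 87.0) and its erythroid sum the lowest (119.9 CPM, against 225 and 399). The part of these markers in the counts was not tested.

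Pla2g7 encodes the secreted, lipoprotein-associated PAF acetylhydrolase, which removes the acetyl group that PAF needs for signalling. The gene lies at 17:43568098-43612201 on the plus strand of GRCm38. It stood at 1435, 1271, 1149 and 1251 CPM in CSF3R-only replicates A to D, and at 855.6, 393.1 and 447.7 CPM in CSF3R-first replicates A to C. In CEBPA-first replicates A to D it stood at 90.6, 61.3, 96.8 and 53.7 CPM. No 2 groups overlapped, and the CSF3R-first samples were the most spread, with replicate A about midway between the controls and its own group's other samples. Its mean and SD were 75.6 ± 21.3 CPM over the 4 CEBPA-first samples, 565 ± 253 CPM over the 3 CSF3R-first samples and 1276 ± 118 CPM over the 4 controls. Against the controls the log2 fold change was -4.08 in CEBPA-first (SE 0.26, edgeR adjusted p = 3.6e-08) and -1.17 in CSF3R-first (SE 0.26, adjusted p = 0.0034). CEBPA-first was 7.48-fold lower than CSF3R-first, a log2 fold change of -2.90 (SE 0.26, edgeR adjusted p = 3.6e-06). An antisense gene, 1700071M16Rik, overlaps part of its exons, and 89% of its exon bases lie outside other genes; the counting's use of strand is not given in the sources used here.

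Monocyte and macrophage, neutrophil maturation, eosinophil and megakaryocyte sums all had the same order of groups as Pla2g7. Their list medians between CEBPA-first and CSF3R-only were -2.14, -2.89, -2.30 and -4.87 on the log2 scale. The study lists Pla2g7 among genes expressed in mature neutrophils. The 16 monocyte and macrophage genes had a sum of 978 to 1382 CPM in CEBPA-first samples, 1760 to 3140 CPM in the intermediate group and 3285 to 4144 CPM in controls. Of the 16, 14 fell and 2 rose between CEBPA-first and CSF3R-only, against 36.6% and 35.4% of all genes. Csf1r, the macrophage growth factor receptor, averaged 1126 CPM in controls, 589.6 CPM with CSF3R first and 223 CPM with CEBPA first, while Ly6c2 averaged 234, 251 and 291 CPM. The part of these markers in the Pla2g7 result was not tested.

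The genes whose log2 CPM followed Pla2g7 most closely over the 11 samples were Mcemp1 (Pearson r 0.9994), Pirb (0.9992), Fgr (0.9991), Clec4n (0.9989) and Gsap (0.9986), of 5918 genes compared. They are known as a myeloid membrane protein, an inhibitory immunoglobulin-like receptor, a Src-family kinase, the lectin receptor dectin-2 and the gamma-secretase activating protein. These coefficients describe 3 groups of samples with different levels, and 165 genes exceeded 0.99. Each of the 5 had a smaller log2 fold change than Pla2g7 between CEBPA-first and CSF3R-only, from -3.42 for Clec4n to -2.72 for Fgr. Pirb, for example, averaged 965 CPM in controls, 515 CPM with CSF3R first and 131 CPM with CEBPA first.

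Among the other members, the same coefficient with Pla2g7 ran from 0.99 for Alox5ap and Ptgs1 to 0.60 for Alox15, and it was -0.89 for Lta4h. Within the 4 CSF3R-only samples it was -0.98 for Ptgs1 and 0.61 for Alox5ap, and within the 4 CEBPA-first samples -0.05 and 0.96. Over the other members it ran from -0.98 to 0.78 within CSF3R-only and from -0.65 to 0.99 within CEBPA-first. Coefficients over 4 samples are imprecise, and their differences were not tested. Lta4h was at 0.00 within CSF3R-only and at 0.99 within CEBPA-first, each over 4 samples.

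The 5-lipoxygenase branch held 4 members, and they did not move as 1 unit. Alox5 and Alox5ap fell by about 4-fold in CEBPA-first, Ltc4s fell from under 1 CPM, and Lta4h rose. Alox5 encodes 5-lipoxygenase, which turns arachidonic acid into leukotriene A4. It lies at 6:116410077-116461178 on the minus strand. Its levels were 450.4, 446.4, 487.8 and 448.7 CPM in CSF3R-only A to D, and 262, 208 and 247 CPM in CSF3R-first A to C. In CEBPA-first A to D they were 102, 108, 111 and 127 CPM. The 3 groups did not overlap, and the CSF3R-only samples were close together apart from replicate C. The log2 fold change of Alox5 in CEBPA-first was -2.03 against the controls (SE 0.09, edgeR adjusted p = 1.3e-09) and -1.09 against CSF3R-first (SE 0.09, adjusted p = 2.0e-06). CSF3R-first was below CSF3R-only by -0.94 (SE 0.09, adjusted p = 1.9e-05).

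Alox5ap encodes the 5-lipoxygenase activating protein (FLAP), a membrane protein that hands arachidonic acid to 5-lipoxygenase. It lies at 5:149264767-149288153 on the plus strand, and 86.7% of its exon bases lie outside other genes. It stood at 278, 279.8, 265 and 260.3 CPM in CSF3R-only A to D. The CSF3R-first samples A to C had 186, 115 and 147 CPM, and the CEBPA-first samples A to D had 73.2, 56.8, 72.7 and 58.2 CPM. The groups were again apart in all samples, and the enzyme and its partner had similar log2 fold changes. That of Alox5ap was -2.06 (SE 0.13, edgeR adjusted p = 3.5e-08) between CEBPA-first and CSF3R-only, -1.20 (SE 0.14, adjusted p = 2.7e-05) against CSF3R-first, and -0.86 (SE 0.14, adjusted p = 5.8e-04) between CSF3R-first and CSF3R-only.

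Lta4h encodes leukotriene A4 hydrolase, which makes the neutrophil attractant leukotriene B4 and also acts as an aminopeptidase. It lies at 10:93453411-93484875 on the plus strand. It was the member that rose. Its levels were 320.3, 336, 318 and 335 CPM in CSF3R-only A to D, 456, 387 and 374 CPM in CSF3R-first A to C, and 518, 489.6, 526 and 488 CPM in CEBPA-first A to D. Every CEBPA-first sample was above every CSF3R-first sample, and every CSF3R-first sample was above every CSF3R-only sample. The increases were smaller than 2-fold. CEBPA-first exceeded CSF3R-only by a log2 fold change of 0.63 (SE 0.07, edgeR adjusted p = 3.2e-06) and CSF3R-first by 0.32 (SE 0.07, adjusted p = 0.0042), and CSF3R-first exceeded CSF3R-only by 0.31 (SE 0.07, adjusted p = 0.0052). The sum of the primary granule markers had the same order of groups, as did the means of 4 of the 5 genes. Ms4a3 differed, at 375 CPM in controls, 556 CPM with CSF3R first and 462 CPM with CEBPA first, and was named after its values were seen. Their part in the Lta4h result was not tested.

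Ltc4s encodes leukotriene C4 synthase, which joins glutathione to leukotriene A4 and so opens the cysteinyl leukotriene branch known from mast cells and eosinophils. It lies at 11:50236461-50238616 on the minus strand, and 73.6% of its exon bases lie outside other genes because Gm26542 overlaps it in antisense. It was the scarcest member, with 10 to 48 counts per library. It was at 0.78, 0.78, 0.69 and 0.51 CPM in CSF3R-only A to D, 0.47, 0.36 and 0.76 CPM in CSF3R-first A to C, and 0.19, 0.17, 0.19 and 0.36 CPM in CEBPA-first A to D. A count of 0 would allow up to 3 counts, or 0.0383 to 0.0648 CPM, so it was detected in each library, with counting error only in that limit. CEBPA-first was lower than CSF3R-only by -1.55 on the log2 scale (SE 0.32, edgeR adjusted p = 7.0e-04). The difference from CSF3R-first was -1.20 (SE 0.34, adjusted p = 0.012), and without CSF3R-first replicate C it was -0.84 with an adjusted p of 0.088. CSF3R-first and CSF3R-only overlapped, at -0.36 (SE 0.33, adjusted p = 0.41).

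Markers of the cells known for leukotrienes were measured beside these genes. The neutrophil maturation list, given above, fell in 14 of 14 genes between CEBPA-first and CSF3R-only, against 36.6% of all genes. S100a9, an abundant calcium-binding protein of maturing neutrophils, averaged 8391 CPM in controls, 5511 CPM with CSF3R first and 1154 CPM with CEBPA first. The 14 mast cell and basophil genes summed to 2190 to 3227, 1361 to 1661 and 1391 to 1825 CPM in that order, so the CSF3R-first and CEBPA-first samples overlapped for this sum. The 9 eosinophil genes summed to 250.1 to 379, 62.0 to 142 and 31.6 to 39.6 CPM, led by Prg2, the major basic protein, at means of 254, 64.0 and 17.5 CPM. The part of these markers in the Alox5, Alox5ap and Ltc4s results was not tested.

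**Figure D3:**
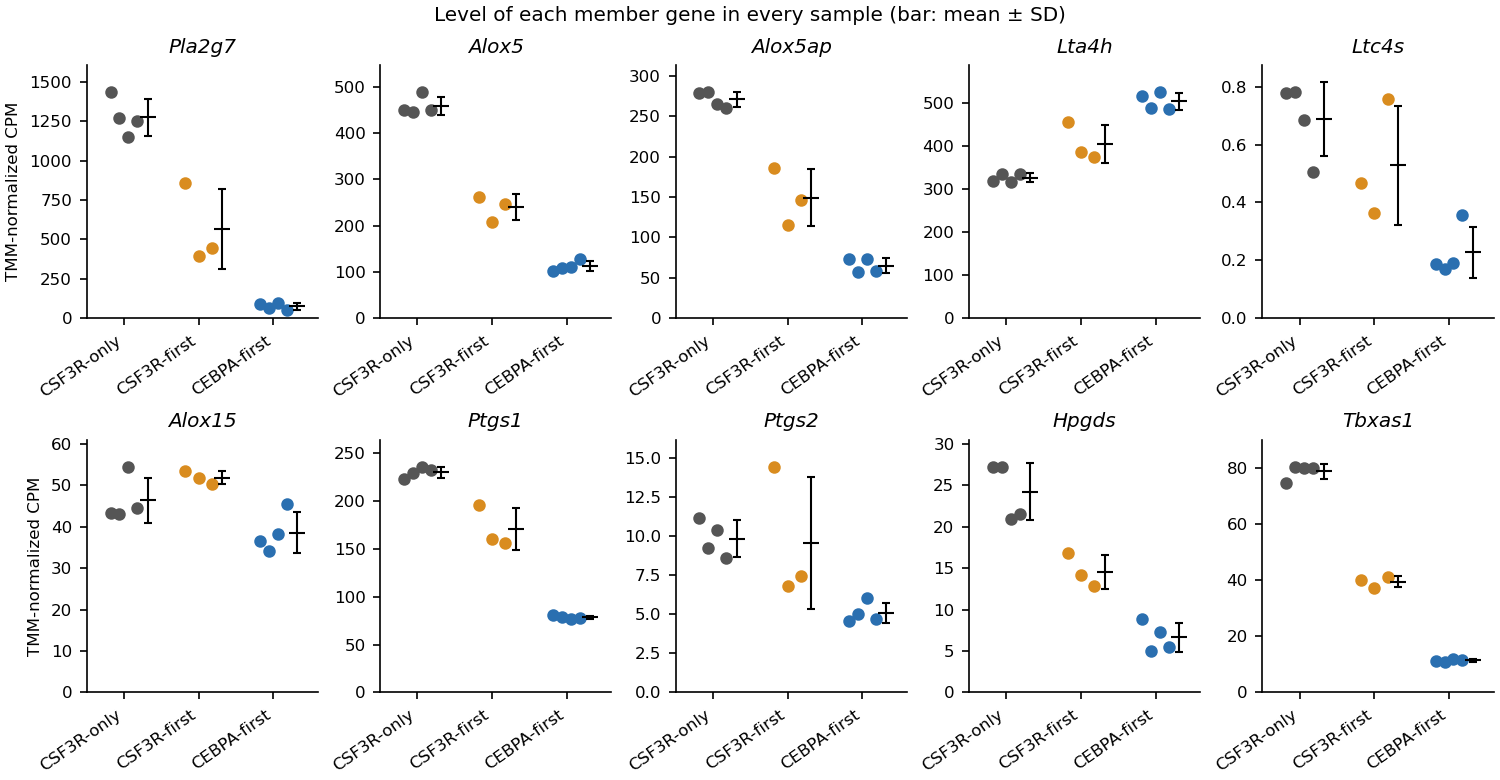
TMM-normalized CPM (vertical axes start at 0) of each member in every sample, by group, with the mean and SD beside the points. In 8 members each group's mean is below that of the group to its left, while Lta4h has the opposite order; Alox15 is highest in CSF3R-first, and Ptgs2 has 1 high CSF3R-first sample at 14.5 CPM.

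Alox15 encodes the mouse leukocyte 12/15-lipoxygenase, known from eosinophils and resident macrophages. It lies at 11:70344152-70352031 on the minus strand. Its levels were 43.3, 43.1, 54.5 and 44.7 CPM in CSF3R-only A to D, 53.6, 51.8 and 50.3 CPM in CSF3R-first A to C, and 36.5, 34.1, 38.2 and 45.5 CPM in CEBPA-first A to D. CSF3R-first had the highest mean, 51.9 ± 1.65 CPM (SD, n = 3), and CEBPA-first the lowest, 38.6 ± 4.94 CPM (n = 4). CEBPA-first was lower than CSF3R-first by -0.43 on the log2 scale (SE 0.10, edgeR adjusted p = 0.0046), with no overlap. Against CSF3R-only the value was -0.27 (SE 0.10, adjusted p = 0.024), the groups overlapped, and the call did not hold in every setting. Without CSF3R-only replicate C it was -0.18 with an adjusted p of 0.084, and without CEBPA-first replicate A, B or C the adjusted p was 0.065, 0.078 and 0.051. CSF3R-first and CSF3R-only had a log2 fold change of 0.16 (SE 0.10, adjusted p = 0.23). The eosinophil sum was 250.1 to 379 CPM in the CSF3R-only samples, 62.0 to 142 CPM in CSF3R-first and 31.6 to 39.6 CPM in CEBPA-first. CSF3R-first was thus below the controls for this sum, whereas its Alox15 mean was the highest. The monocyte and macrophage sum, given with Pla2g7, was lowest in CEBPA-first too, and it was also lower in CSF3R-first than in the controls. The part of these markers in the Alox15 result was not tested.

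The cyclooxygenase branch had its 4 members lower in CEBPA-first than in both other groups. Ptgs1, Hpgds and Tbxas1 were past 2-fold in both comparisons, and Ptgs2 was below 2-fold in both with all samples. Ptgs1 encodes cyclooxygenase-1, the constitutive enzyme that makes prostaglandin H2. It lies at 2:36230426-36252272 on the plus strand, with 96.2% of its exon bases outside other genes. It stood at 223, 229, 236 and 232 CPM in CSF3R-only A to D, 196, 160.0 and 156 CPM in CSF3R-first A to C, and 80.5, 79.1, 76.3 and 77.7 CPM in CEBPA-first A to D. The CEBPA-first samples differed from one another by less than 5 CPM, and no groups overlapped. The log2 fold change was -1.55 (SE 0.07, edgeR adjusted p = 1.9e-09) against CSF3R-only and -1.12 (SE 0.07, adjusted p = 3.5e-07) against CSF3R-first. CSF3R-first was below CSF3R-only by -0.43 (SE 0.08, adjusted p = 8.7e-04).

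Ptgs2 encodes cyclooxygenase-2, the inducible form. It lies at 1:150100031-150108227 on the plus strand. It was at 11.2, 9.25, 10.4 and 8.60 CPM in CSF3R-only A to D, 14.5, 6.84 and 7.47 CPM in CSF3R-first A to C, and 4.60, 5.05, 6.05 and 4.71 CPM in CEBPA-first A to D. CEBPA-first lay below both other groups in every sample, by -0.95 (SE 0.21, edgeR adjusted p = 9.8e-04) against CSF3R-only and -0.91 (SE 0.22, adjusted p = 0.0046) against CSF3R-first on the log2 scale. Both values lay near 2-fold and single samples carried them past it. Against CSF3R-first it was -1.10 without CSF3R-first replicate B, -1.07 without C and -0.49 without A, and against CSF3R-only it was -1.02 without CSF3R-only replicate D and -1.04 without CEBPA-first replicate C. The adjusted p stayed under 0.05 with each sample left out. CSF3R-first replicate A was the highest of all 11 samples, while the other two samples of its group were below every CSF3R-only sample. The difference of CSF3R-first from CSF3R-only was -0.04 (SE 0.22, adjusted p = 0.90), and -0.46 with an adjusted p of 0.014 without that replicate.

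Hpgds encodes the glutathione-dependent prostaglandin D synthase of haematopoietic cells, known from mast cells. It lies at 6:65117293-65144908 on the minus strand. Its levels were 27.3, 27.2, 21.0 and 21.6 CPM in CSF3R-only A to D, 16.8, 14.1 and 12.8 CPM in CSF3R-first A to C, and 8.88, 5.01, 7.24 and 5.54 CPM in CEBPA-first A to D. The groups did not overlap. The log2 fold change of CEBPA-first was -1.87 (SE 0.17, edgeR adjusted p = 6.2e-07) against the controls and -1.13 (SE 0.18, adjusted p = 3.2e-04) against CSF3R-first, and CSF3R-first was below CSF3R-only by -0.73 (SE 0.18, adjusted p = 0.0057). Of the 13 mast cell and basophil genes tested, 9 fell, 1 rose and 3 did not pass between CEBPA-first and CSF3R-only. Over all genes, 36.6% fell and 35.4% rose there. The mast cell and basophil genes did not all share the order of Hpgds. Cpa3 averaged 488.5 CPM in controls, 305 CPM with CSF3R first and 306 CPM with CEBPA first, whereas Mcpt8, a basophil protease, averaged 769, 333 and 167 CPM. The gene that rose was Fcer1a, the alpha chain of the high-affinity IgE receptor, at 117, 63.3 and 259.9 CPM. Ms4a2, its beta chain, averaged 89.6, 74.6 and 122 CPM, and the protease Prss34 averaged 385, 278 and 355 CPM. Fcer1a and Ms4a2 were named after their values were seen. The part of these markers in the Hpgds result was not tested.

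Tbxas1 encodes thromboxane A synthase, which turns prostaglandin H2 into the platelet activator thromboxane A2 and is also known from monocytes. It lies at 6:38875404-39084585 on the plus strand. Its standard error was the smallest of the 10 members in each comparison. It stood at 74.5, 80.4, 79.9 and 79.9 CPM in CSF3R-only A to D, 40.1, 37.3 and 41.0 CPM in CSF3R-first A to C, and 11.1, 10.9, 11.8 and 11.7 CPM in CEBPA-first A to D. CEBPA-first was 6.92-fold below CSF3R-only, a log2 fold change of -2.79 (SE 0.06, edgeR adjusted p = 7.5e-12). It was 3.47-fold below CSF3R-first (-1.80, SE 0.06, adjusted p = 2.8e-09). CSF3R-first was 1.99-fold below CSF3R-only (-0.995, SE 0.06, adjusted p = 3.0e-07), just short of the 2-fold threshold.

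Megakaryocyte and platelet markers moved with Tbxas1 and Ptgs1. All 10 genes of that list fell past 2-fold between CEBPA-first and CSF3R-only, against 19.0% of all genes. Their sum was 115 to 160.2 CPM with CEBPA first, 362 to 576 CPM with CSF3R first and 981 to 1328 CPM in controls. Pf4, platelet factor 4, averaged 30.9, 133 and 349.9 CPM in that order. The median log2 fold change of the list was -4.87, against -2.79 for Tbxas1 and -1.55 for Ptgs1. The monocyte list, given with Pla2g7, also moved with Tbxas1. The part of either list in these results was not tested. The erythroid list did not pass the test between CSF3R-first and CSF3R-only in any of its 9 genes, and its sums of 120 to 399 CPM in CSF3R-first overlapped those of 260.0 to 394 CPM in CSF3R-only. In CEBPA-first the erythroid sum was 38.5 to 55.3 CPM. The dendritic cell sum was 43.1 to 51.1 CPM over all samples, most of it from Bst2, an interferon-induced membrane protein, at means of 29.9 CPM in controls and 41.0 CPM with CEBPA first. Its genes moved in opposite directions between CEBPA-first and CSF3R-only, with 2 lower, 2 higher and 1 not passing among the 5 tested. The shares over all genes were 36.6% lower and 35.4% higher. Itgax, the integrin CD11c, fell from a mean of 9.88 CPM in controls to 1.60 CPM, and the receptor gene Flt3 rose from 2.34 to 6.603 CPM.

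Per length, as CPM per kb of exon, the order of the members differed between the groups. In CSF3R-only it ran Pla2g7 (439), Alox5ap (191), Alox5 (112), Ptgs1 (59.2), Lta4h (53.7), Alox15 (18.9), Tbxas1 (8.65), Hpgds (3.78), Ptgs2 (2.15) and Ltc4s (0.68), and no neighbours in this order overlapped. In CSF3R-first Lta4h, at 66.5 CPM per kb, stood beside Alox5, at 58.2, and these overlapped, as did Hpgds and Ptgs2 at 2.27 and 2.10. In CEBPA-first Lta4h came first at 82.8 CPM per kb, ahead of Alox5ap at 45.9. Alox5 at 27.3, Pla2g7 at 26.02 and Ptgs1 at 20.2 followed, and Pla2g7 overlapped both of its neighbours. Tbxas1, Ptgs2 and Hpgds were at 1.25, 1.11 and 1.04 CPM per kb with overlapping samples, and Ltc4s was last at 0.22.

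**Figure D4:**
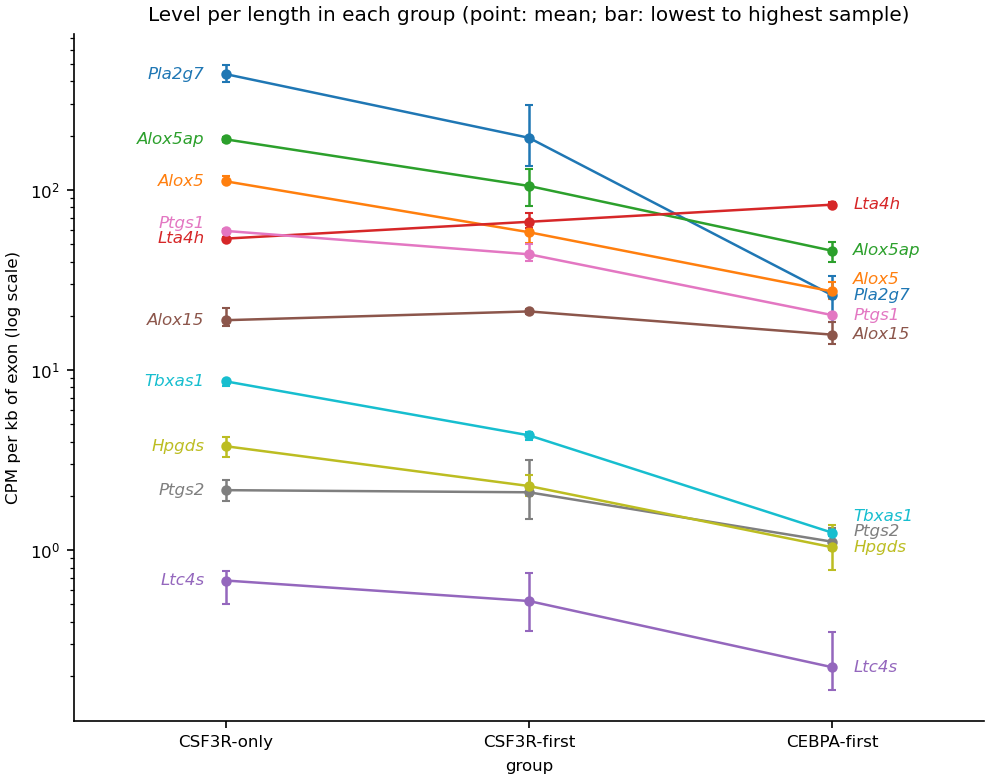
Level of each member as CPM per kb of exon (log axis) in the 3 groups, with the point at the mean and the bar from the lowest to the highest sample. Pla2g7 leads in CSF3R-only, at 439, and is at 26.02 in CEBPA-first, where Lta4h leads at 82.8.

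The other enzymes and receptors of these routes were read from 6 lists with 91 genes in all, of which 90 matched the table and 68 passed the filter. Between CEBPA-first and CSF3R-only, 42 of the 68 fell, 15 rose and 11 did not pass, and 31 were past 2-fold lower and 4 past 2-fold higher. Between CEBPA-first and CSF3R-first 34 fell and 12 rose, and between CSF3R-first and CSF3R-only 31 fell and 10 rose. The shares of all genes given above are the background for these counts and for those of each list below. Between CEBPA-first and CSF3R-only they were 36.6% lower, 35.4% higher and 19.0% past 2-fold lower. Log2 fold changes in parentheses below compare CEBPA-first with CSF3R-only, with standard errors from 0.07 for Chpt1 to 0.37 for Pla2g3 and edgeR adjusted p of at most 0.014, that of Pla2g3. The lists differed among themselves, with medians in the first comparison from -2.38 for the list of lipoxygenase-related genes to 0.22 for prostanoid synthesis and breakdown.

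Of the arachidonate release genes, 6 of 10 tested fell and 2 rose between CEBPA-first and CSF3R-only. Anxa1, the phospholipase-restraining protein annexin A1, had a mean and SD of 526 ± 43.8 CPM over the 4 CEBPA-first samples, 1214 ± 268 CPM over the 3 CSF3R-first samples and 2004 ± 139 CPM over the 4 controls, a log2 fold change of -1.93 between the first and the last. Pla2g12a, a secreted phospholipase, rose from 24.1 to 60.4 CPM (1.33), and Pla2g3, another secreted phospholipase, was under 1 CPM in every sample, with overlapping groups (-1.14). The phospholipase that feeds both branches in myeloid cells, Pla2g4a, was chosen after its values were seen: it fell by 0.60 on the log2 scale (edgeR adjusted p = 6.6e-07), which is under 2-fold.

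PAF genes did not share a direction, with 5 of 14 lower and 5 higher, near the 36.6% and 35.4% of all genes. Their median was -0.00. Lpcat2, which makes PAF in inflammatory cells, averaged 355 CPM in controls, 198 CPM with CSF3R first and 80.9 CPM with CEBPA first (log2 fold change between the outer groups -2.13); values below keep this order. Chpt1, a choline phosphotransferase, went from 50.2 to 16.9 CPM (-1.57). Far2 and Agps, which build the alkyl chain and the ether bond of ether lipids, rose. Far2 averaged 8.65, 35.3 and 72.1 CPM (3.06, edgeR adjusted p = 1.1e-10) and Agps 264, 536 and 651 CPM (1.30). The PAF receptor Ptafr averaged 56.0, 27.5 and 10.0 CPM (-2.48). Pla2g7 thus had the largest change in size of the PAF genes tested between CEBPA-first and CSF3R-only. Between CSF3R-first and CSF3R-only Far2 changed more, at 2.03, against -1.17 for Pla2g7. The intracellular acetylhydrolase Pafah2, also chosen after its values were seen, was at -0.23 between CEBPA-first and CSF3R-only (edgeR adjusted p = 0.027). Chosen in the same way, Pafah1b1 averaged 118 CPM in controls and 111 CPM with CEBPA first, Pafah1b2 170 and 239 CPM, and Pafah1b3 9.66 and 12.1 CPM.

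The list of lipoxygenase-related genes held 6 that were tested, and 4 of them are lipoxygenases, which all fell past 2-fold between CEBPA-first and CSF3R-only. The other two were named after their values were seen: Cotl1, an actin-binding partner of 5-lipoxygenase, fell (-1.57), and Ephx2, the soluble epoxide hydrolase, rose by less than 2-fold (0.86). Alox12, the platelet 12-lipoxygenase, had 197 to 390 counts per library in controls, 16 to 56 with CSF3R first and 2 to 5 with CEBPA first, with means of 5.49, 0.64 and 0.065 CPM (-6.36). Alox8 averaged 40.1, 22.1 and 6.13 CPM (-2.71), and Alox12e (-3.31) and Aloxe3 (-2.06) averaged under 2 CPM in every group, with at most 10 and 17 counts per CEBPA-first library. Alox15, by comparison, was at -0.27, and the difference between genes was not tested.

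Leukotriene conversion genes fell in 12 of 13, with 9 past 2-fold and none higher. Dpep2, a dipeptidase that turns leukotriene D4 into E4, averaged 212, 104 and 26.2 CPM (-3.02), and its relative Dpep3 was under 2 CPM throughout, with 6 to 14 counts per CEBPA-first library (-3.48). Ggt5, which makes leukotriene D4, averaged 42.9, 22.2 and 6.20 CPM (-2.79), and Cyp4f18, which inactivates leukotriene B4 in neutrophils, averaged 114, 66.7 and 22.7 CPM (-2.32). Of 12 receptors tested, 9 fell past 2-fold, 1 rose and 2 did not pass. The riser was Ptger4, a prostaglandin E2 receptor, at 20.4 CPM in controls, 17.9 CPM with CSF3R first and 35.1 CPM with CEBPA first (0.78, edgeR adjusted p = 5.2e-05), and it too was named after its values were seen. Ltb4r1, the high-affinity leukotriene B4 receptor, averaged 349.8, 168 and 56.6 CPM (-2.63), opposite in direction to Lta4h, whose enzyme makes its ligand. Fpr2, a receptor for lipoxin A4 and formyl peptides, averaged 102, 36.2 and 2.99 CPM (-5.10), and Tbxa2r, the thromboxane receptor, averaged 2.93, 0.79 and 0.13 CPM, with 7 to 12 counts per CEBPA-first library (-4.44), the same direction as Tbxas1.

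Prostanoid synthesis and breakdown genes were divided, with 5 of 13 lower and 6 higher, against 36.6% and 35.4% of all genes. Ptges, the inducible prostaglandin E synthase, averaged 6.73, 4.27 and 1.001 CPM (-2.76), and Prxl2b, a prostamide and prostaglandin F synthase, 5.64, 3.06 and 1.64 CPM (-1.79). Hpgd, which inactivates prostaglandins, was under 2 CPM in each library, with 0 to 7 counts in CEBPA-first. Akr1c18, an aldo-keto reductase known for reducing progesterone and also for prostaglandin F synthesis, was the gene that rose past 2-fold. It had 3 to 11 counts per library in CSF3R-only and averaged 0.12 CPM there, against 82.3 CPM with CEBPA first and 18.1 CPM with CSF3R first.

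**Figure D5:**
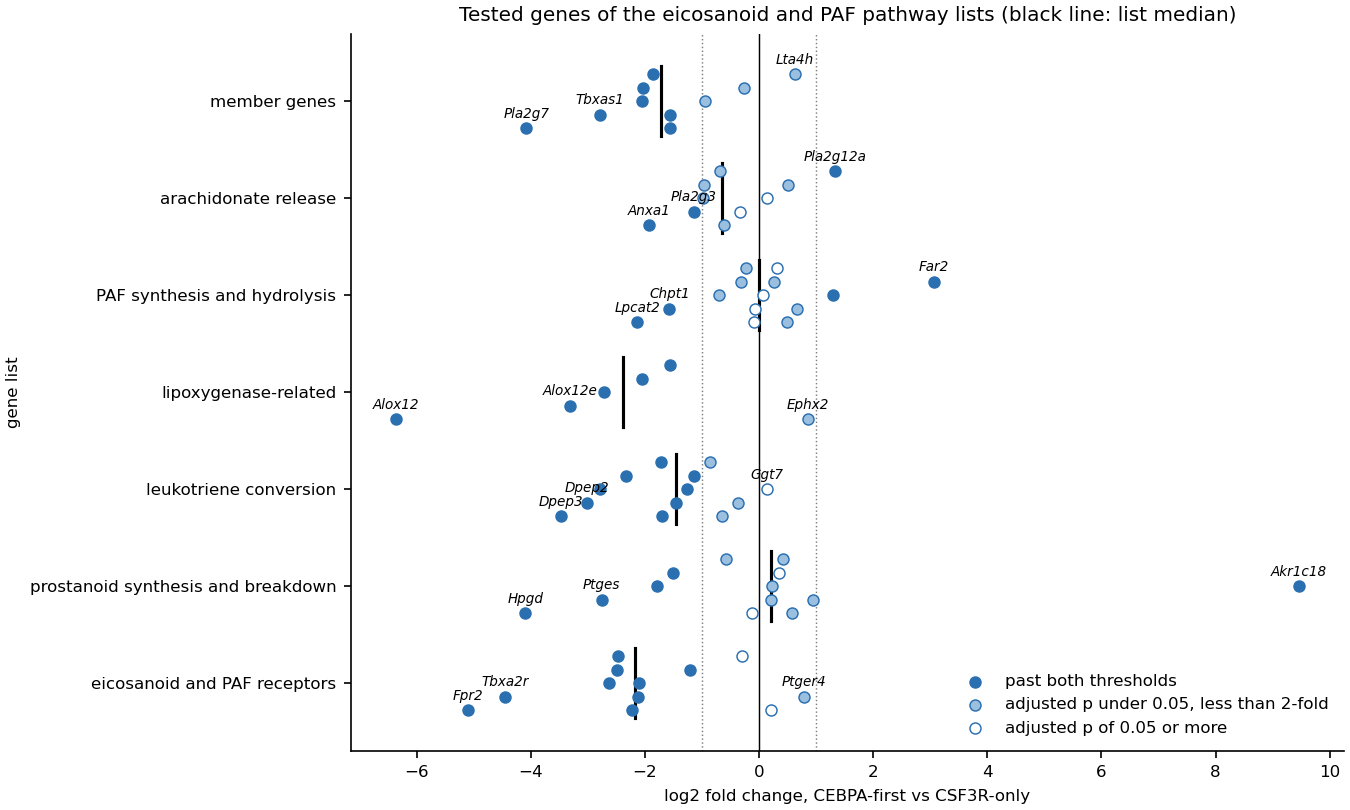
Log2 fold change between CEBPA-first and CSF3R-only (horizontal axis) of the members and of each wider list, 1 point per tested gene, filled by whether it passed the adjusted p and 2-fold thresholds, with the list median as a black line. Receptors, leukotriene conversion genes and lipoxygenase-related genes lie mostly to the left, while PAF genes have a median of -0.00 and Akr1c18 stands far to the right.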

How the data were processed

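The authors sorted and cultured the cells, made libraries with a SMARTer low-input kit, sequenced 100-base single reads, used Trimmomatic for trimming and STAR for alignment, and deposited gene counts that were not normalized. The submitters' notes name mm10; the counting tool, annotation and strand setting are not given in the sources used here. Groups and replicate letters came from the sample titles. The methods describe female donors, while the Y-linked gene Ddx3y was at 69.8 CPM or more in every library.

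Counts were filtered with filterByExpr, scaled with TMM and tested with edgeR 4.0.16 in R 4.3.3, in one quasi-likelihood fit of the 3 groups without covariates. Benjamini-Hochberg adjustment ran over 15703 genes, and each SE is the size of the log2 fold change over the root of its F statistic. Log2 CPM used a prior count of 2. The code was tested on simulated data. Alternatives were DESeq2 1.42.0, 2 other scalings, 2 count filters, only the compared groups, a replicate block, other thresholds and each sample left out in turn.

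Symbols came with a table of Ensembl identifiers, positions and exon lengths from GENCODE M21 (GRCm38), and upstream sequence from RefSeq (GRCm38.p6). Exons were searched for near-identical stretches of at least 100 bp at 97% identity with BLAST 2.17.0, and the values found for members lay in overlapping antisense genes, except for 2.61% of the Tbxas1 transcript. Replicates differed by more than sampling noise, with a chi-square statistic per degree of freedom between 9.11 and 99.1 in the 15 pairs.

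Named genes were every member, up to 4 genes past the threshold per wider list by size of change between CEBPA-first and CSF3R-only, up to 3 genes per marker list by level, and the 5 genes most like Pla2g7 by Pearson correlation among those averaging 5 or more on the log2 CPM scale. The members and lists were chosen with earlier results of these data known.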

Additional observations from a re-analysis of the deposited data

Results flagged for a closer look

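Within groups of 4 samples, 6 values stood apart from the others by Dixon's criterion, of 66 groups examined. Chance flags about 1 group in 20, which is 3.3 groups here. Alox5 in CSF3R-only replicate C was at 487.8 CPM, with the next sample at 450.4. Alox15 in the same library was at 54.5 CPM, with the next at 44.7, and the call of Alox15 between CEBPA-first and CSF3R-only was lost without it. Far2, again in that library, was at 9.68 CPM, with the next at 8.39. Tbxas1 in CSF3R-only replicate A was at 74.5 CPM, below the next at 79.9. Ltc4s in CEBPA-first replicate D was at 0.36 CPM, with the next at 0.19, on at most 28 counts. Ptges in CEBPA-first replicate D was at 0.74 CPM, below the next at 1.06.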

How the results depend on the processing

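Over 18 alternatives for each member and comparison, 529 values kept direction and side of the adjusted p threshold of 0.05, 6 lost it, 1 gained it and 4 changed sign; calls that also ask for 2-fold moved further, as the counts below show. The sign changes were those of Ptgs2 between CSF3R-first and CSF3R-only, 0.0081 without a filter on low counts, 0.02 without CSF3R-only replicate A, and 0.15 and 0.13 without CSF3R-first replicates B and C; without replicate A it was -0.46 and passed the test. Without a filter, Alox15 between CEBPA-first and CSF3R-only was at -0.19 with an edgeR adjusted p of 0.11, and the median of the genes shared by the fits moved from 0.04 to 0.11. The other calls lost are given with Alox15 and Ltc4s. With each sample left out, the members past both thresholds numbered 0 to 4 between CSF3R-first and CSF3R-only (1 with all samples), the wider genes 6 to 18 (12 with all samples), and all genes 819 to 1435 (1045 with all samples), each lowest without CSF3R-first replicate B and highest without its replicate A. Where every sample had to hold 10 counts or more, the members there numbered 2, the wider genes 6, and all genes 566 (1045 with the main filter), and 1219 of all genes passed between CEBPA-first and CSF3R-first (2016). By adjusted p alone, the counts in the 3 comparisons, in the order of the report, were 57, 46 and 41 wider genes, 11314, 7578 and 6703 of all genes, and 7 members in the last. Of all genes between CEBPA-first and CSF3R-only, 2976 of 4244 past both thresholds were lower, and 5753 of 11314 by adjusted p alone. A test against a 2-fold change (glmTreat) left 2495, 799 and 201 of all genes, 2 members and 14 wider genes in the second comparison, and 0 members and 4 wider genes in the third. The fit with a replicate block called 7, 7 and 1 members, as did the fit without it. Same-lettered samples of different groups correlated at -0.11 to 0.36 over 10 pairs, 7 of them over 0.1. Differently lettered ones ran from -0.34 to 0.38 and were mostly negative. The labels do not state what a letter shares between groups, and the main fit did not use letters as pairing. Whether same-lettered samples share a preparation was not tested. Depth limits Ltc4s, Pla2g3, Alox12, Alox12e, Aloxe3, Dpep3, Tbxa2r, Hpgd and Akr1c18, which had fewer than 50 counts in every library of at least 1 group.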
